A study of Homo sapiens with 20 samples.

Results

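The broad constitutive sites are the stretches of the SW872 genome that were called accessible in every transduced population and were at least 2000 bp wide once the peaks of all populations were merged. They were chosen by 2 values from the peak lists themselves, the presence of a peak in all 7 lists and the merged width. Of 372133 merged sites, 60372 were held by all 7 lists, and 13161 of these were broad, 21.8% of the constitutive sites and 3.54% of all sites. The rest of the constitutive sites, 47211 in number, were under 2 kb and serve as the comparison below. Width and presence in every list are therefore the rule and not a result, and what follows describes how each list fills these sites.

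SW872 is an established human liposarcoma cell line. ATAC-seq, in which the Tn5 transposase cuts open chromatin and inserts sequencing adapters, was run on cells stably transduced with a pBabeNeo retroviral vector. The 7 groups were the empty vector (EV), TAZ4SA and YAP5SA (full-length TAZ and YAP with serines phosphorylated by the LATS kinases replaced by alanine), full-length CAMTA1, full-length TFE3, and 2 fusions, TAZ-CAMTA1 and YAP-TFE3. All populations were therefore transduced and selected SW872 cells, and each carried its transgene on top of the cell line's own TAZ, YAP, CAMTA1 and TFE3 genes. Each group had 3 libraries from separate transductions, except TFE3 with 2, for 20 libraries in all. One EV library, the third, is titled a redo without further detail, and the titles of the YAP-TFE3 libraries give YAP5SA as the YAP part of the fusion. The deposited files hold 1 peak list per vector, so no value below has a replicate, no difference between lists was tested, and intervals are Wilson 95% intervals that cover counting error only. The depth behind each list is unknown.

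TAZ and YAP are the transcriptional coactivators at the end of the Hippo pathway. The pathway's LATS kinases phosphorylate them and keep them out of the nucleus, and in the nucleus they act through the TEAD DNA-binding proteins. CAMTA1 is a calmodulin-binding transcription activator and TFE3 a basic helix-loop-helix leucine zipper factor. Their C-terminal parts are joined to the N-terminal parts of TAZ and YAP in the fusions that define epithelioid hemangioendothelioma, a vascular sarcoma. Broad stretches of accessible chromatin are generally known from promoters of active genes, CpG islands and clusters of enhancers. Which of these a given site is was not analysed here, because no gene annotation or genome of the files' build (hg19) was used, so the sites are given by position only.

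A few sites show the range of what the 7 lists do inside them. The site whose peak number varied most lay at chr5:677146-695889 (18744 bp). TAZ4SA held 21 peaks there, YAP5SA and TFE3 held 12 each, CAMTA1 8, EV 4, YAP-TFE3 3 and TAZ-CAMTA1 a single peak of 18704 bp. The lists covered unequal parts of it, from 59.2% of the site in TAZ4SA and 86.7% in YAP5SA to 95.8% in EV, 97.9% in YAP-TFE3 and 99.8% in TAZ-CAMTA1. TAZ4SA thus broke the site up, and TAZ-CAMTA1 called it as 1 block. The site with the next largest range lay at chr7:1569385-1589252 (19868 bp). There EV was the most broken list with 20 peaks. CAMTA1, TFE3 and YAP-TFE3 held 10 each, YAP5SA 9, TAZ4SA 8 and TAZ-CAMTA1 4. TAZ4SA covered 8031 bp of this site, EV 14114 bp, YAP5SA 16510 bp, TFE3 16584 bp, CAMTA1 17291 bp, YAP-TFE3 17781 bp and TAZ-CAMTA1 19426 bp. TAZ4SA thus held fewer peaks than EV here while it left more of the site uncalled, and TAZ-CAMTA1 held fewer peaks while it covered more.

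Other sites owed their width to 1 or a few lists. At chr12:104747937-104752575 (4639 bp), which had the largest ratio of bases covered between YAP-TFE3 and EV, YAP-TFE3 covered 4580 bp in a single peak. EV covered 97 bp of this site, TAZ4SA 521 bp, TFE3 1319 bp, TAZ-CAMTA1 1789 bp, YAP5SA 2259 bp and CAMTA1 2269 bp. At chr5:153338564-153340700 (2137 bp), which had the largest ratio between TAZ4SA and EV, EV again covered little, 50 bp. YAP5SA covered all 2137 bp there, TAZ4SA 1891 bp, CAMTA1 1830 bp, TAZ-CAMTA1 1706 bp, YAP-TFE3 1542 bp and TFE3 653 bp. Every construct was wider than EV at this site, and the widest was YAP5SA. In the other direction, at chr5:165730703-165734893 (4191 bp) EV covered 3597 bp, TAZ4SA 3235 bp, YAP5SA 3066 bp and CAMTA1 1340 bp. TFE3 covered 91 bp of that site, TAZ-CAMTA1 96 bp and YAP-TFE3 383 bp. This site had the smallest ratio of bases covered between TAZ-CAMTA1 and EV, 0.0267. The smallest ratio of TAZ4SA to EV, 0.0205, was at chr6:34035388-34038853 (3466 bp). TAZ4SA covered 29 bp of it in 1 peak, EV 1418 bp, TFE3 1549 bp, YAP5SA 2111 bp, YAP-TFE3 2264 bp, CAMTA1 2668 bp and TAZ-CAMTA1 3287 bp. The smallest ratio of YAP-TFE3 to EV, 0.0157, was at chr5:165553861-165561516 (7656 bp), on the same part of chromosome 5 as the site that TAZ-CAMTA1 left nearly empty. YAP-TFE3 covered 100 bp there, TFE3 455 bp, TAZ-CAMTA1 858 bp, CAMTA1 2328 bp, YAP5SA 4587 bp, TAZ4SA 5586 bp and EV 6388 bp. The low lists at these 2 chromosome 5 sites were the same, TFE3 and both fusions.

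**Figure D1:**
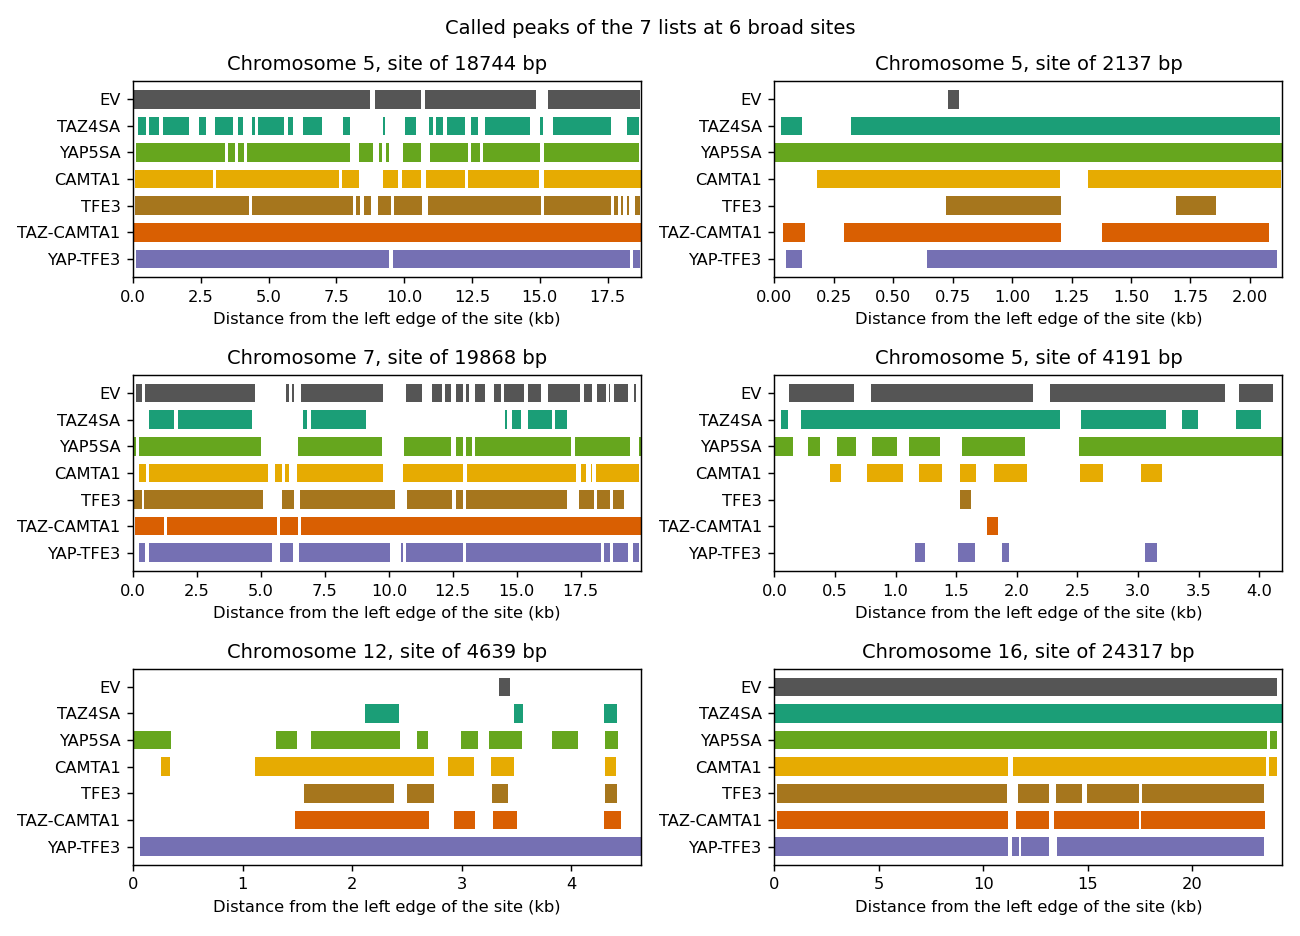
Called peaks (coloured bars, 1 row per peak list) at 6 broad sites, with the distance from the left edge of the merged site in kb on the x axis. The single TAZ-CAMTA1 block over the 18744 bp site on chromosome 5 stands against 21 TAZ4SA peaks, the 4639 bp site on chromosome 12 is filled by YAP-TFE3 alone, and the 4191 bp site on chromosome 5 is nearly empty in TFE3 and in both fusions.

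The broadest site of all lay at chr1:228744061-228784393 (40333 bp) and hardly varied. It was 1 peak in every list but TFE3, which held 2, and the bases covered ran from 40088 bp in TFE3 to 40331 bp in YAP-TFE3. The next, at chr16:46385757-46410073 (24317 bp), begins where the longest stretch of chromosome 16 without a peak ends. TAZ4SA covered all of it with 1 peak, and EV held 1 peak, YAP5SA 2, CAMTA1 3, each fusion 4 and TFE3 5. TAZ4SA thus held 1 peak here and 21 at the chromosome 5 site of 18744 bp, while TAZ-CAMTA1 held 4 here and 1 there. The other 8 of the 10 widest sites measured from 15513 to 20058 bp and lay on chromosomes 5, 7, 8, 9, 11 and X. Over all members the median width was 2587 bp, with quartiles of 2246 and 3216 bp. Of the members, 5845 (44.4%) were under 2500 bp, 1549 (11.8%) reached 4000 bp and 142 reached 8000 bp. Together they covered 39066677 bp.

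Sites just inside and outside the threshold looked alike. The 3 members of exactly 2000 bp (chr1:6258797-6260796, chr1:109101931-109103930 and chr3:167966493-167968492) held 1 to 3 peaks per list and were covered for 1051 to 1969 bp. The 3 constitutive sites of 1999 bp (chr1:224544041-224546039, chr2:98611424-98613422 and chr2:221092456-221094454) also held 1 to 3 peaks per list and were covered for 981 to 1999 bp. Of 13333 sites of 2000 bp or more, 13161 (98.7%) had a peak in every list, against 60372 of all 372133 merged sites. A merged site takes in the peaks of all lists, so its width is tied to the number of lists in it. This share therefore follows in part from the merge.

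The broad sites took a large share of every list. They held 8.26% (TAZ-CAMTA1) to 21.5% (TAZ4SA) of a list's peaks, 32.2% (TAZ-CAMTA1) to 42.3% (TAZ4SA) of its bases and 49.9% (TAZ-CAMTA1) to 59.1% (EV) of its summed peak area. Peak area, the seventh column of the lists, is the area under the peak caller's statistic along the peak.

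The number of peaks inside a broad site was lowest in the fusions, and the lists formed a gradient with CAMTA1 next to YAP-TFE3. The mean number per site was 1.49 in TAZ-CAMTA1, 1.82 in YAP-TFE3, 2.01 in CAMTA1, 2.21 in TFE3, 2.30 in EV, 2.41 in YAP5SA and 2.49 in TAZ4SA. A single peak was called in 66.4% of the sites in TAZ-CAMTA1 (95% interval 65.6 to 67.2), 50.2% in YAP-TFE3 (49.4 to 51.1) and 42.8% in CAMTA1. The share was 33.3% in EV (32.5 to 34.1) and 27.2% in TAZ4SA (26.4 to 28.0). Sites in 4 or more peaks were rare in TAZ-CAMTA1 (3.02%) and most common in TAZ4SA (19.0%). In constitutive sites under 2 kb the lists kept nearly the same order on a smaller scale, with a single peak in 81.2% of the sites in TAZ-CAMTA1, 65.1% in EV and 67.5% in TAZ4SA. There TAZ4SA had single peaks more often than EV, which was the reverse of the broad sites.

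**Figure D2:**
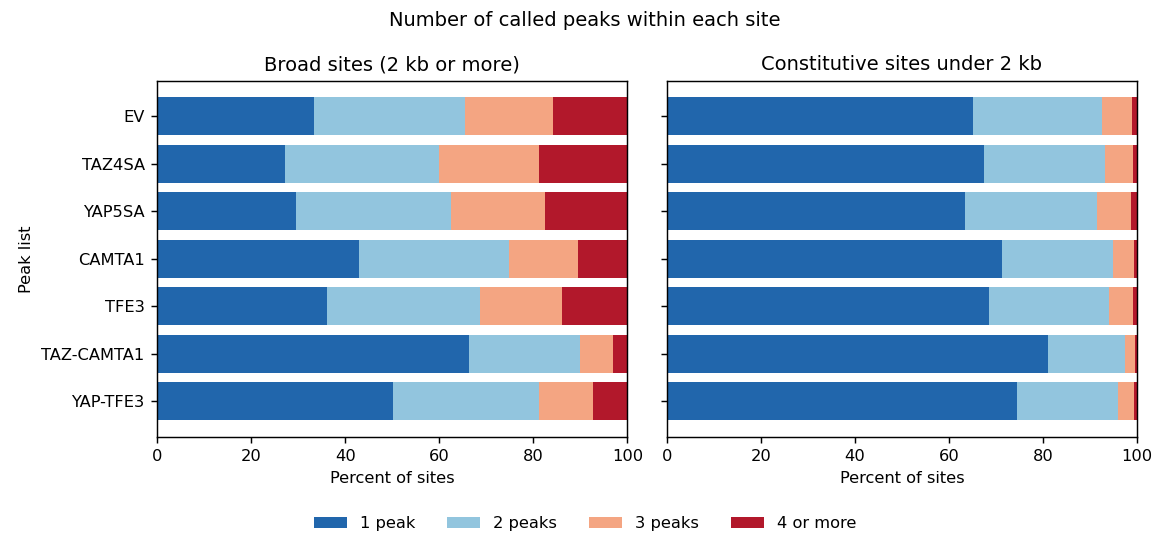
Percent of sites (x axis) called as 1, 2, 3 or 4 or more peaks in each list (y axis), for the 13161 broad sites and the 47211 constitutive sites under 2 kb. TAZ-CAMTA1 calls 66.4% of the broad sites as 1 peak and EV 33.3%.

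A single peak of 2000 bp or more, that is a broad peak within 1 list, was present at 76.1% of the members in TAZ-CAMTA1, 61.7% in YAP-TFE3, 54.2% in CAMTA1, 37.3% in YAP5SA, 36.1% in EV, 35.7% in TFE3 and 14.1% in TAZ4SA. A constitutive site with such a peak is a member by the rule, and no site under 2 kb can hold one. These shares therefore use the width that chose the members. Over all constitutive sites they were 16.6% in TAZ-CAMTA1, 13.5% in YAP-TFE3, 11.8% in CAMTA1 and 8.13% in YAP5SA. They were 7.86% in EV, 7.78% in TFE3 and 3.07% in TAZ4SA. In 1545 members (11.7%) a peak of 2000 bp or more was present in every list, and in 1763 (13.4%) in TAZ-CAMTA1 alone. In 1684 (12.8%) it was present in no list, so that their width came from peaks of different lists lying beside each other. The whole merged site was 1 peak in 1536 members (11.7%) in TAZ-CAMTA1, 434 (3.30%) in YAP-TFE3, 192 (1.46%) in CAMTA1 and 79 (0.600%) in YAP5SA. In TAZ4SA this was so in 30 members (0.228%), in EV in 27 (0.205%) and in TFE3 in 2 (0.0152%). Over all constitutive sites the shares were 11.1% in TAZ-CAMTA1, 5.54% in YAP-TFE3, 3.80% in CAMTA1 and 2.63% in YAP5SA. They were 0.477% in TAZ4SA, 0.310% in EV and 0.164% in TFE3. The members' share was thus lower in every list but TAZ-CAMTA1, where it was close to that of all constitutive sites.

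The median number of bases covered per member was 1560 in TAZ4SA, 2009 in TFE3, 2015 in EV, 2058 in YAP5SA, 2254 in CAMTA1, 2321 in YAP-TFE3 and 2442 in TAZ-CAMTA1. As a median share of the merged site this was 59.1% in TAZ4SA, 78.2% in EV and 96.0% in TAZ-CAMTA1. TAZ-CAMTA1 covered more bases than any other list in 7537 members (57.3%) and YAP-TFE3 in 2813 (21.4%). TAZ4SA covered the fewest in 10920 (83.0%). These ranks were counted in the members only, so no share over all constitutive sites stands beside them. The merged site also includes the peaks of the list that is ranked. Over all constitutive sites the median share covered was 47.3% in TAZ4SA, 63.6% in EV and 92.9% in TAZ-CAMTA1, the same order. All 7 lists covered 50.7% of the members' bases in common, against 34.1% of the bases of constitutive sites under 2 kb. The bases missing from TAZ4SA alone made up 12% of the bases of the members, and those present in TAZ-CAMTA1 alone made up 2.78%. In constitutive sites under 2 kb these shares were 10.7% and 3.96%.

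How far each construct widened or broke up the members was then read against EV, site by site. A site was counted as narrower where the list covered 0.8 times the bases of EV or less, and as wider where EV covered 0.8 times the bases of the list or less. The share over all 60372 constitutive sites stands beside these shares as the background. A site can hold fewer peaks than in EV only where EV held more than 1, which was so at 8782 members and at 25248 of all constitutive sites, so the shares with fewer peaks follow this difference too. All of these comparisons share the EV list.

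TAZ4SA covered fewer bases than EV at most broad sites and held more peaks than EV more often than fewer. Its median ratio of bases covered to EV was 0.775 (quartiles 0.624 and 0.893), close to the 0.783 of all constitutive sites. It was narrower than EV at 7259 members (55.2%), close to the background of 52.2%. It was wider at 333 (2.53%), against a background of 14.5%, so that widening by TAZ4SA was less frequent at broad sites than over all constitutive sites. TAZ4SA held more peaks than EV at 39.1% of the members (background 23.1%) and fewer at 28.4% (background 22.7%). A share with more peaks above the background was also found for YAP5SA, CAMTA1, TFE3 and YAP-TFE3, as given below. Among sites with several EV peaks TAZ4SA held fewer at 42.5% of the members, below the 54.2% of all constitutive sites. The whole TAZ4SA list covered 0.748 times the bases of the EV list, so a ratio below 1 was not particular to the broad sites.

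YAP5SA left the width of most members near that of EV, with a median ratio of 1.01 (quartiles 0.921 and 1.13). It was wider at 14.8% (background 33.9%) and narrower at 8.44% (background 16.4%), both lower than the background. Yet it changed the number of peaks at most sites. More peaks were called than in EV at 34.1% (background 23.6%) and fewer at 27.5% (background 20.5%). Among sites with several EV peaks the share with fewer was 41.1% of the members, below the 49.0% of all constitutive sites. For YAP5SA the balance of more and fewer turned when the lists were cut to equal numbers of peaks by −log10 p, to 24.2% more and 32.9% fewer, whereas for TAZ4SA it was then 42.1% more and 24.7% fewer.

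CAMTA1 widened the members with a median ratio of 1.12 (quartiles 1.02 and 1.26). It was wider at 26.4% (background 50.1%) and narrower at 1.88% (background 4.56%). Fewer peaks than in EV were called at 38.1% (background 25.7%) and more at 21.5% (background 16.6%). Among sites with several EV peaks CAMTA1 called fewer at 57.1% of the members, below the 61.5% of all constitutive sites. TFE3, from 2 libraries, had a median ratio of 1.01 (quartiles 0.927 and 1.11). It was wider at 10.4% (background 29.9%) and narrower at 8.15% (background 13.2%). TFE3 called fewer peaks than EV at 31.9% (background 22.3%) and more at 25.7% (background 17.7%). At sites with an EV peak of 2000 bp or more this balance turned for TFE3, to 22.6% fewer and 31.2% more. Among sites with several EV peaks TFE3 called fewer at 47.8% of the members, below the 53.4% of all constitutive sites. Of the full-length partners, CAMTA1 thus had the wider members and the fewer pieces. The whole lists stood in the same order, as CAMTA1 covered 1.39 times and TFE3 1.03 times the bases of the EV list. The larger coverage of CAMTA1 was therefore not particular to the broad sites. The whole YAP5SA list covered 1.23 times the EV bases.

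TAZ-CAMTA1 showed the largest widening and joining of the 6 constructs at the broad sites. The median ratio to EV was 1.21 (quartiles 1.10 and 1.39), a median gain of 455 bp per site. Over all constitutive sites the median ratio was larger, 1.37, and the median gain smaller, 279 bp. The members thus gained less by ratio and more by bases. TAZ-CAMTA1 was wider at 5677 members (43.1%, background 61.2%) and narrower at 122 (0.927%, background 2.20%). Fewer peaks than in EV were called at 7020 members (53.3%, background 32.9%) and more at 1302 (9.89%, background 9.92%). Among sites with several EV peaks the shares with fewer were close to each other, 79.9% of the members (95% interval 79.1 to 80.8) and 78.7% of all constitutive sites (78.1 to 79.2). Of the members, 5207 (39.6%, background 28.1%) were 1 peak in TAZ-CAMTA1 and several in EV, and 849 (6.45%, background 8.26%) the reverse.

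YAP-TFE3 followed with a median ratio of 1.15 (quartiles 1.04 and 1.31) and a median gain of 319 bp. Over all constitutive sites these were 1.28 and 214 bp. YAP-TFE3 was wider at 31.8% (background 52.8%) and narrower at 2.17% (background 4.54%). Fewer peaks than in EV were called at 44.0% (background 28.3%) and more at 17.2% (background 14.3%). Among sites with several EV peaks the shares with fewer were 65.9% of the members and 67.7% of all constitutive sites. Both fusions were wider than EV at 3787 members (28.8%, background 47.3%). At 579 members (background 1.78% of sites) both fusions held 1 peak and each of the other 5 lists several. The whole lists also differed in size, since TAZ-CAMTA1 covered 1.61 times and YAP-TFE3 1.48 times the bases of EV. The members' totals differed less, by 1.24 and 1.17 times.

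**Figure D3:**
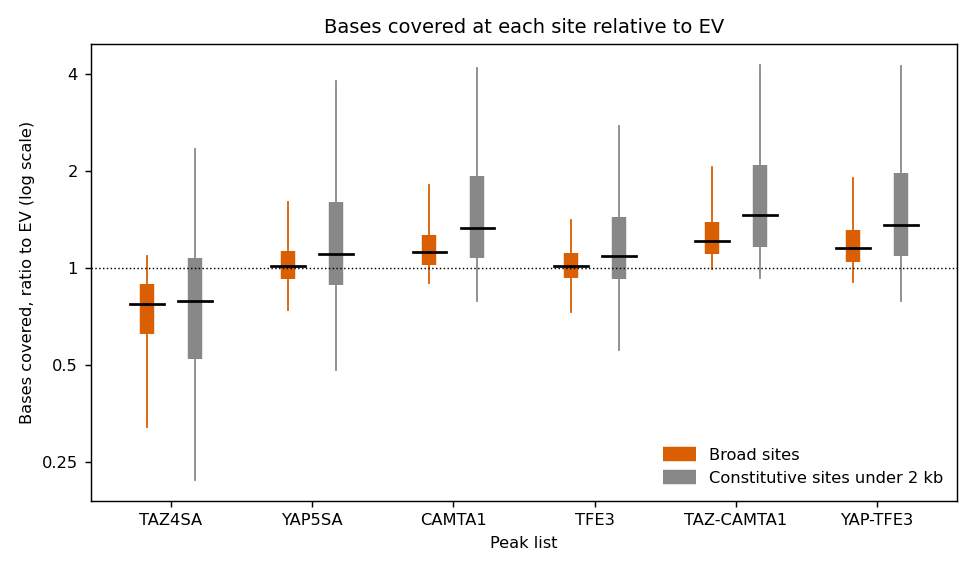
Bases covered per site as a ratio to EV (y axis, log scale) for the 6 constructs, in the broad sites and in the constitutive sites under 2 kb. Black lines are medians, boxes run from the lower to the upper quartile and whiskers from the 5th to the 95th percentile over sites. TAZ4SA lies below 1 in both sets, and the other constructs lie closer to 1 in the broad sites than in the narrower ones.

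The gained bases came from the flanks and from the gaps between EV peaks. EV left 17100 gaps inside the members, with a median length of 149 bp. TAZ-CAMTA1 closed 81.7% of them (95% interval 81.2 to 82.3), YAP-TFE3 65.4% (64.7 to 66.1), CAMTA1 56.0%, YAP5SA 36.6%, TFE3 33.3% and TAZ4SA 10.7% (10.3 to 11.2). Of the 30261 EV peaks in the members, TAZ4SA cut 25% into pieces, YAP5SA 17%, TFE3 12.7%, CAMTA1 8.70%, YAP-TFE3 6.64% and TAZ-CAMTA1 3.80%. The order for cutting EV peaks was the reverse of that for closing EV gaps except for YAP5SA, which closed more gaps than TFE3 and also cut more peaks. Closed gaps and cut peaks were counted in the members only. By bases, TAZ-CAMTA1 filled 87.8% of the EV gaps in the members and 84.4% in constitutive sites under 2 kb. These shares were 74.8% and 74.1% in YAP-TFE3, 66.9% and 70.6% in CAMTA1 and 17.4% and 22.8% in TAZ4SA. They were 49.3% and 50.7% in YAP5SA and 43.5% and 46.8% in TFE3, so gap filling was not particular to the broad sites.

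In all, TAZ-CAMTA1 added 14.7% of the EV bases beyond the outer EV peaks and 11.2% in the gaps. It lost 1.05% at the edges and 1.13% inside, a net gain of 23.7%. YAP-TFE3 added 11.6% beyond the outer peaks and 9.56% in the gaps, for a net gain of 17%. CAMTA1 gained 13.6% net, YAP5SA 2.82% and TFE3 0.139%. TAZ4SA lost 16.1% at the edges and 12.6% inside, and came to a net change of -24.4%. In the constitutive sites under 2 kb the gain of TAZ-CAMTA1 lay mostly beyond the outer EV peaks (38.6%), with 10.9% in the gaps, so gap filling made up a larger part of the gain in the broad sites.

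**Figure D4:**
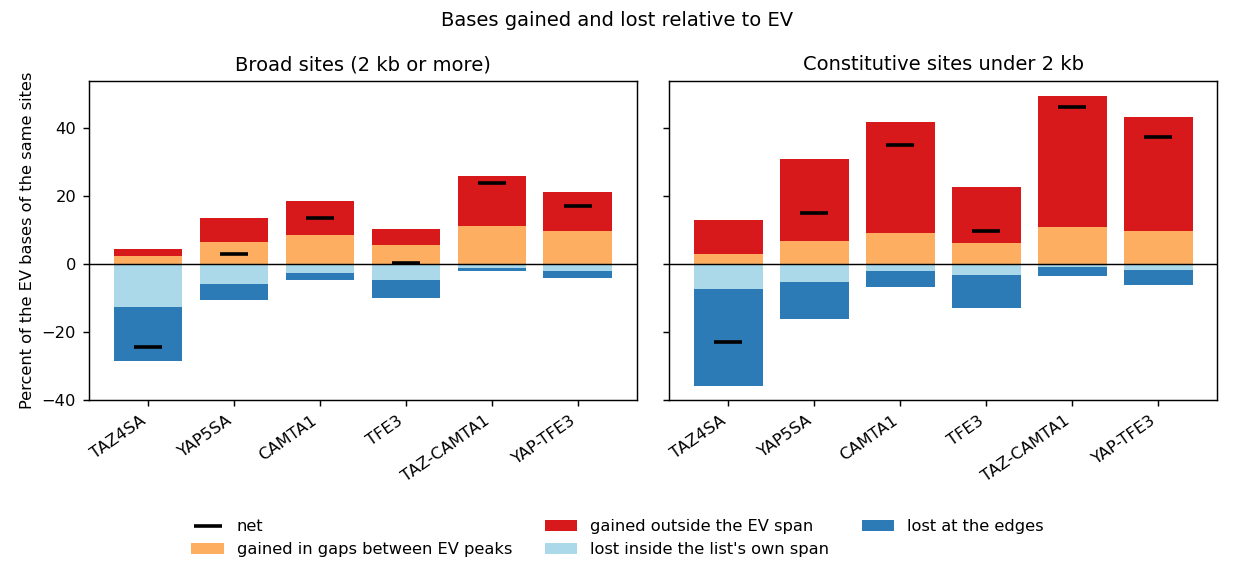
Bases gained (above 0) and lost (below 0) by each construct as a percent of the EV bases of the same sites (y axis), split into bases in gaps between EV peaks, outside the EV span, at the edges and inside the list's own span. The black bar is the net change, from 23.7% in TAZ-CAMTA1 to -24.4% in TAZ4SA in the broad sites.

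Per edge, the outermost called base of TAZ-CAMTA1 lay a median of 102 bp outside that of EV, YAP-TFE3 56 bp, CAMTA1 43 bp, YAP5SA 9 bp and TFE3 2 bp. The median for TAZ4SA was -127 bp, that is inside the EV edge. At 9429 members (71.6%, background 72.0%) TAZ-CAMTA1 reached beyond EV at both edges. The point of strongest signal stayed near that of EV at most members. The summit of the peak with the highest summit −log10 p in a site lay within 100 bp of that of EV in 65.6% (TAZ4SA) to 73.2% (YAP-TFE3) of the members. It lay over 1000 bp away in 4.62% (YAP-TFE3) to 6.09% (TAZ4SA). In the constitutive sites under 2 kb it lay within 100 bp more often, in 71.9% (TAZ4SA) to 79.9% (TAZ-CAMTA1). There it was over 1000 bp away in 0.180% (TAZ-CAMTA1) to 0.333% (TAZ4SA), though these sites leave less room for such a distance.

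Each fusion was next compared with the full-length proteins it derives from. TAZ-CAMTA1 covered a median of 1.59 times the bases of TAZ4SA and was wider by the same measure at 83.0% of the members (background 80.7%). Against CAMTA1 the median ratio was 1.07, with 13.4% wider (background 23.0%). YAP-TFE3 covered a median of 1.13 times the bases of YAP5SA, with 26.9% wider (background 40.4%). Against TFE3 the median ratio was 1.14, with 28.3% wider (background 42.1%). The width of the TAZ-CAMTA1 sites was therefore nearer to that of CAMTA1 than to that of TAZ4SA, whereas the ratios of YAP-TFE3 to YAP5SA and to TFE3 were close to each other. TAZ4SA was the narrowest list at 83.0% of the members, a share that was not counted over all constitutive sites. TAZ-CAMTA1 was also nearer to EV (median ratio 1.21) and to YAP-TFE3 (1.04) than to TAZ4SA, so this was not particular to CAMTA1.

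By base, 58.9% of the TAZ-CAMTA1 bases in the members were in both TAZ4SA and CAMTA1, 30.0% in CAMTA1 only, 1.00% in TAZ4SA only and 10.1% in neither. For YAP-TFE3, 76.3% were in both YAP5SA and TFE3, 7.02% in YAP5SA only, 7.43% in TFE3 only and 9.24% in neither. Some of the bases in neither part were in EV. Those in neither part nor EV made up 7.63% for TAZ-CAMTA1 and 6.73% for YAP-TFE3. In constitutive sites under 2 kb the shares in neither part were higher, 13.8% and 14.0%, and 36.5% of the TAZ-CAMTA1 bases were in CAMTA1 only. The bases of the fusions were largely the same. Those covered by both made up 91.2% of the TAZ-CAMTA1 bases and 96.4% of the YAP-TFE3 bases. In the constitutive sites under 2 kb these shares were 86.4% and 91.9%.

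Because the merged width includes the list under comparison, its share in making a site broad was measured by leaving each list out of the merge. Without TAZ-CAMTA1, 1818 members (13.8%) fell under 2000 bp and 3501 (26.6%) came apart into separate pieces. Without YAP-TFE3, 844 fell under the threshold, without CAMTA1 577, without YAP5SA 492, without EV 260, without TAZ4SA 123 and without TFE3 62. So most members stayed broad without any 1 list. Sites were also set by the 5 lists outside a pair, by the same rule, which keeps the pair out of the choice (an alternative chosen after seeing the data). Over 11043 such sites the median ratio of TAZ-CAMTA1 to EV inside them was 1.15, and over 12078 sites that of YAP-TFE3 to EV was 1.13. The ratio of TAZ-CAMTA1 to TAZ4SA was 1.49 over 11366 sites, to CAMTA1 1.04 over 10442, and that of TAZ4SA to EV 0.775 over 12939. These ratios count only bases inside the windows, so widening beyond them is not in them.

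The number of peaks rose with width. From members of 2000 to 2500 bp to members of 8000 bp or more, the mean number of peaks rose from 1.36 to 3.02 in TAZ-CAMTA1, from 1.90 to 5.89 in EV and from 1.97 to 6.96 in TAZ4SA. Peaks per kb of site fell over the same range, from 0.612 to 0.289 in TAZ-CAMTA1, from 0.852 to 0.563 in EV and from 0.884 to 0.665 in TAZ4SA. The median share of the site covered stayed within 95.6% to 96.9% over the 5 width classes in TAZ-CAMTA1, 76.7% to 84.7% in EV and 58.5% to 63.7% in TAZ4SA. The median ratio to EV of TAZ-CAMTA1 went from 1.23 in the narrowest class to 1.15 in the widest.

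The summed area of the peaks in a member had a median of 3123 in TAZ4SA, 4398 in TFE3, 4925 in EV, 6210 in YAP5SA, 8133 in CAMTA1, 9002 in TAZ-CAMTA1 and 9843 in YAP-TFE3. The area is not scaled between lists and TFE3 had 2 libraries where the others had 3, and the part of depth in this order was not tested. On the log2 scale the median difference from EV was -0.63 for TAZ4SA (all constitutive sites -0.65), 0.23 for YAP5SA (0.40), 0.69 for CAMTA1 (1.05), -0.18 for TFE3 (0.09), 0.87 for TAZ-CAMTA1 (1.26) and 0.96 for YAP-TFE3 (1.29). For every construct except TAZ4SA the difference was smaller or lower at the broad sites than over all constitutive sites, and for TFE3 it changed sign. YAP-TFE3 had the larger area and TAZ-CAMTA1 the more bases, so the 2 fusions stood in opposite order on these measures. The largest median area after the site of 40333 bp was at chr1:564412-570354, a site of 5943 bp that was 1 peak in every list, with areas from 125017 in TFE3 to 252415 in TAZ4SA.

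Some members went against the general order, and part of these lay together. TAZ4SA covered more bases than TAZ-CAMTA1 at 2.43% of the members, less often than over all constitutive sites (7.29%). With ties counted in, TAZ4SA covered at least as many bases at 321 members (2.44%). Of these, 67 (20.9%) lay within 1 Mb of the longest stretch without a peak on their chromosome, where 170 of all members (1.29%) lay. Among the 142 members of 8000 bp or more there were 23 such sites, 13 of them within that distance. Both fusions covered 0.8 times the EV bases or less at 103 members (0.783%, background 1.17%). At these the median bases covered were 2678 in EV, 2569 in TAZ4SA, 2477 in YAP5SA, 2049 in CAMTA1, 1584 in TAZ-CAMTA1, 1511 in YAP-TFE3 and 1071 in TFE3. The choice of these members fixes both fusions below EV. Of the lists not used in the choice, TFE3 was lower than both fusions and CAMTA1 lay above them. TAZ4SA and YAP5SA lay nearest to EV.

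Of these 103 members, 23 were among the 25 members between 165 and 166 Mb of chromosome 5, the largest number in any 1 Mb stretch. The stretches named here were picked for that count after their values were seen, which fixes the place of the fusions below EV in them. The 25 members lay at chr5:165553861-165966070. Over them EV covered 68553 bp, YAP5SA 68050 bp, TAZ4SA 67666 bp, CAMTA1 48207 bp, YAP-TFE3 33313 bp, TAZ-CAMTA1 27655 bp and TFE3 24351 bp. EV and the full-length coactivators were nearly level there, and CAMTA1, TFE3 and the fusions were lower. The summed area relative to EV was 1.73 in YAP5SA, 1.23 in TAZ4SA, 0.864 in CAMTA1, 0.600 in YAP-TFE3, 0.491 in TAZ-CAMTA1 and 0.348 in TFE3. TFE3 and both fusions were also the lowest lists between 86 and 87 Mb of chromosome 8 (16 members) and between 49 and 50 Mb of chromosome 4 (16 members). On chromosome 8 the bases relative to EV were 1.01 in TAZ4SA, 0.887 in YAP5SA, 0.850 in CAMTA1, 0.682 in TAZ-CAMTA1, 0.622 in YAP-TFE3 and 0.421 in TFE3. On chromosome 4 they were 1.08 in TAZ4SA, 1.01 in YAP5SA, 0.892 in CAMTA1, 0.781 in YAP-TFE3, 0.769 in TAZ-CAMTA1 and 0.649 in TFE3. Copy number and the number of places a read can align to were not analysed here, for these stretches or for any other member.

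The stretches with the most members wider in both fusions than in EV were picked for that count, which fixes the place of the fusions above EV in them. Between 139 and 140 Mb of chromosome 9 both fusions were wider than EV at 24 of 60 members. There the bases relative to EV were 1.40 in TAZ-CAMTA1, 1.22 in YAP-TFE3, 1.17 in CAMTA1, 1.08 in YAP5SA, 0.903 in TFE3 and 0.729 in TAZ4SA. Between 156 and 157 Mb of chromosome 1 this held for 20 of 28 members, with ratios of 1.42 in TAZ-CAMTA1, 1.38 in YAP-TFE3, 1.30 in CAMTA1, 1.16 in TFE3, 1.11 in YAP5SA and 0.690 in TAZ4SA.

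Broad sites were more frequent near chromosome ends, taken as the first base of the chromosome and the last base of any peak on it. Of the constitutive sites within 1 Mb of an end, 33.9% were broad (95% interval 31.7 to 36.2). From 1 to 2 Mb the share was 35.7% (33.6 to 37.8), from 2 to 5 Mb 26.9% (25.5 to 28.2) and from 5 to 10 Mb 21.6% (20.5 to 22.7). Farther in it was 20.3% to 20.4%. Between chromosomes the share ran from 14.5% on chromosome 10 and 15.0% on chromosome 13 to 27.0% on chromosome 11 and 27.2% on chromosome 16. Broad sites also lay near each other, as 30.3% of the members (29.6 to 31.1) had another member within 10 kb, and 19.3% of the narrower sites (18.9 to 19.6) had a member that close. Sites on a chromosome are not independent, so these intervals are too narrow.

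**Figure D5:**
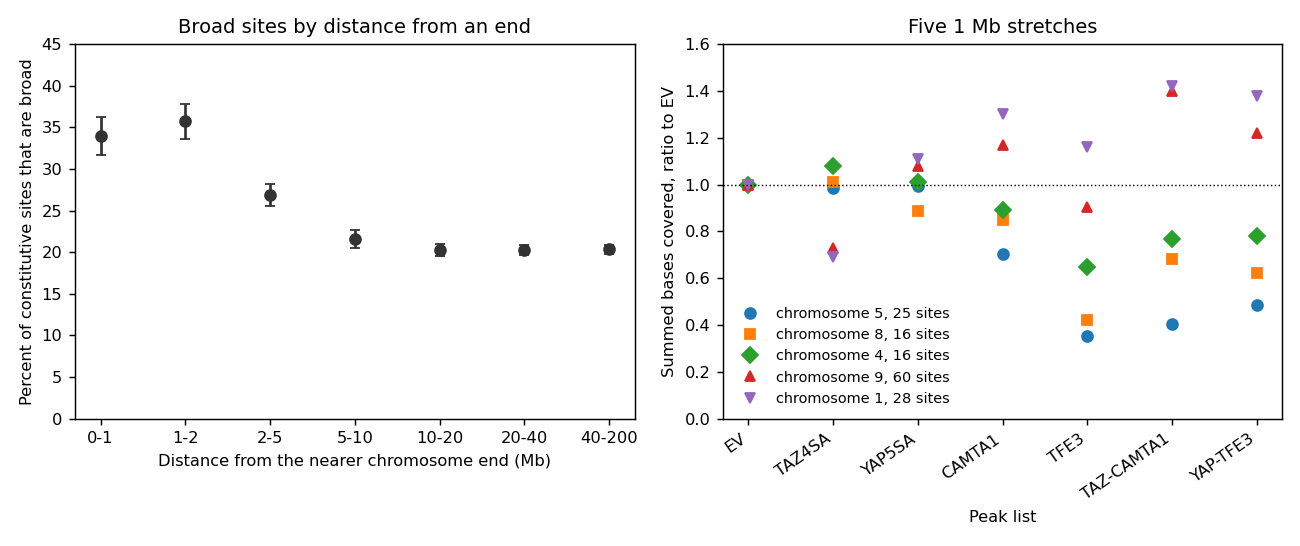
Left, percent of constitutive sites that are broad (y axis) by distance from the nearer chromosome end in Mb, with Wilson 95% intervals, falling from 35.7% between 1 and 2 Mb to 20.4% in the last class. Right, bases covered relative to EV (y axis) summed over the members of 5 stretches of 1 Mb for each list, in which TFE3 and both fusions are below 1 on chromosomes 5, 8 and 4, and both fusions are above 1 on chromosomes 9 and 1. The stretches were picked by how both fusions stood against EV.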

How the data were processed

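According to the study's methods, ATAC-seq reads were trimmed with NGmerge, aligned to hg19 with BWA-MEM and sorted with samtools. Genrich, set to ATAC-seq, called the peaks after removal of PCR duplicates, blacklisted regions and several contigs. The submitters' processing notes instead name mm8 and Bowtie 0.12.2, while the lists hold human chromosomes with positions as in hg19. The methods describe calling per replicate, and how libraries were combined into 1 list per vector is not given in the sources used here. The authors deposited for each peak its signal (area under the curve, at least 20.0), a score, and the −log10 p and −log10 q of its summit. The score, area, −log10 p and summit columns were each mapped to a vector, and the −log10 q was not used.

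Peaks of the 7 lists that overlapped by 1 bp or more were merged (Python 3.11.15, numpy 2.4.6, pandas 2.3.3, scipy 1.17.1), and bedtools 2.31.1 gave the same 372133 sites. No list held overlapping peaks. Peaks, bases and areas were summed per site and list, and the merge was tested on simulated data. Positions count from 1. The sites named are the widest, those of largest median area, of largest and smallest ratio of bases to EV, of largest range of peak number, and those next to the threshold. Values were recomputed under other peak filters, thresholds and lists. The members and comparisons were chosen with earlier results of these data known. Genes, cell type markers, motifs and sequences at the sites were not analysed here.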

Additional observations from a re-analysis of the deposited data

How the results depend on the processing

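The main values are medians over members of the ratio of bases covered for 6 pairs, the percent of members in fewer peaks than in EV for each fusion, and the median log2 area ratio to EV less that of all constitutive sites, which was -0.386 for TAZ-CAMTA1 and -0.327 for YAP-TFE3. Under the alternatives tried these kept their direction, and 75 of 126 recomputed values other than the number of members moved by more than their counting interval. The cause was not tested. Keeping peaks of summit −log10 p 4 or more, TAZ-CAMTA1 over EV was 1.22, over CAMTA1 1.08 and YAP-TFE3 over TFE3 1.15, fewer peaks were found at 48.4% and 40.7% (TAZ-CAMTA1, then YAP-TFE3, here and below), and the areas were -0.347 and -0.289. Keeping those of 5 or more, the ratios to EV were 1.24 and 1.16, TAZ-CAMTA1 over TAZ4SA 1.64 and over CAMTA1 1.08, YAP-TFE3 over YAP5SA 1.14 and over TFE3 1.15, the percents 30.3 and 25.1, and the areas -0.217 and -0.185. With the 152702 strongest peaks of every list by −log10 p, YAP-TFE3 over EV was 1.14, over YAP5SA and TFE3 1.13, TAZ-CAMTA1 over TAZ4SA 1.57 and over CAMTA1 1.08, the YAP-TFE3 percent 47.3 and the areas -0.368 and -0.310; ranked by area the values were the same except for 1.58 and 47.6. A width of 1500 bp or more gave 22978 members, ratios to EV of 1.24 and 1.17, TAZ-CAMTA1 over TAZ4SA 1.64, YAP-TFE3 over YAP5SA 1.13 and over TFE3 1.15, percents of 47.9 and 39.9, and areas of -0.306 and -0.264. A width of 3000 bp or more gave 4128 members, ratios to EV of 1.19 and 1.14, YAP-TFE3 over YAP5SA 1.12 and over TFE3 1.14, percents of 65.4 and 52.6, and a TAZ-CAMTA1 area of -0.394. Sites with an EV peak of 2000 bp or more numbered 4747, with ratios to EV of 1.11 and 1.07, TAZ-CAMTA1 over TAZ4SA 1.40 and over CAMTA1 1.05, YAP-TFE3 over YAP5SA 1.09 and over TFE3 1.10, percents of 40.5 and 32.1, and areas of -0.556 and -0.456. Sites with a peak of 2000 bp or more in any list gave ratios to EV of 1.2 and 1.14, TAZ-CAMTA1 over TAZ4SA 1.56, YAP-TFE3 over TFE3 1.13, percents of 54.9 and 44.9, and areas of -0.408 and -0.344. Omitting the TAZ4SA list gave areas of -0.509 and -0.394. Sites set by the 5 lists outside the pair (chosen after seeing the data) gave 1.15 and 1.13 to EV, 1.49 and 1.04 for TAZ-CAMTA1 over its parts, and 1.11 and 1.12 for YAP-TFE3. A further 6 values turned direction. The median ratio to EV at sites with an EV peak of 2000 bp or more was 0.981 for YAP5SA and 0.983 for TFE3. The TAZ4SA area less that of all constitutive sites, near 0 throughout, was -0.0233 for a summit −log10 p of 5 or more, -0.00384 and -0.0162 with the lower and higher width, and -0.00168 without the TFE3 list. The balance of members with more and with fewer peaks than EV turned for YAP5SA with equal numbers of peaks (24.2% and 32.9% by −log10 p, 24.0% and 32.7% by area), and for TFE3 at sites with an EV peak of 2000 bp or more (31.2% and 22.6%).

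No paired analysis was possible because the files hold 1 list per vector and nothing per library. No library was left out therefore, and the spread between libraries, the depth behind each list and the part of the third EV library in the EV list were not measured. The lists differ in length and bases, and ratios to EV move with this. The planned look at position and sequence windows by gene was not run, for want of an annotation of the same build here.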
